A study of Mus musculus with 6 samples.

Results

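Origin recognition and licensing genes are described here by when their own DNA was replicated. They were chosen by name: Orc1, Orc2, Orc3, Orc4, Orc5 and Orc6, which encode the subunits of the origin recognition complex (ORC), the loading factor genes Cdc6 and Cdt1, and Gmnn, which encodes the inhibitor geminin. These were 9 genes of the 18063 autosomal protein-coding genes with a timing score in every profile. The samples were proliferating cultures of mouse myeloid cell lines that HoxB8 had immortalised under GM-CSF selection, and 3 of them had the genotype Recql4 -/- Klhdc3 -/- and 3 were WT. The sources used here do not say whether the lines of a genotype were separate clones or how the alleles were deleted, and DNA depth holds no expression with which to check the myeloid identity. Whole-genome sequencing depth of such a culture follows replication order, because early replicating DNA is present in more copies than late replicating DNA while cells are in S phase. The 6 columns of values had no names and no label tied one to a sample. They are therefore 6 unassigned profiles, A to F in column order, and neither genotypes nor replicates were compared.

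Licensing is the step that makes an origin ready to fire. In late mitosis and G1, ORC binds DNA and, with CDC6 and CDT1, loads the MCM helicase in an inactive form around the double helix. After S phase begins, geminin binds CDT1, and ubiquitin ligases remove CDT1, so that no origin is loaded again in the same cycle. RECQL4, a RecQ helicase, acts later, when loaded helicases are activated, and KLHDC3 is a substrate receptor of CUL2 ubiquitin ligases.

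Timing scores are in autosomal SD units: within a profile, 0 is the average over autosomal windows, and a score of 1 is 1 SD earlier than that. Of the 9 genes, 8 scored above 0 in each of the 6 profiles, against 76.4% of the autosomal protein-coding genes, and 1, Orc5, scored below 0 in each, against 15.3%. A single gene is 11.1% of such a list, so that share lies near the one over all genes. The median over the 9 genes was 1.17, 1.08, 1.22, 1.04, 1.07 and 0.98 in profiles A to F, and that over all autosomal genes was 0.87, 0.85, 0.83, 0.79, 0.82 and 0.70. The loading factors and the inhibitor were early, with a median of 1.21 (range over profiles 1.11 to 1.39). On the smoothed score the 6 ORC genes were spread from early to late. Their median was 0.62 (0.51 to 0.71), below that of all autosomal genes in each profile. On rescaled raw levels, described below, Orc1 (0.95) and Orc3 (0.89) stood closer to Cdc6 (1.06) than on the score, and Orc4 (0.31) stood farther away. ORC genes are thus not a block. Orc6 and Orc2 stood near Gmnn and Cdc6, and Orc5 stood apart. Orc4, Orc1 and Orc3 came after Cdc6 and before Orc5, at percentiles 32.1 to 46.7 of autosomal genes.

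**Figure D1:**
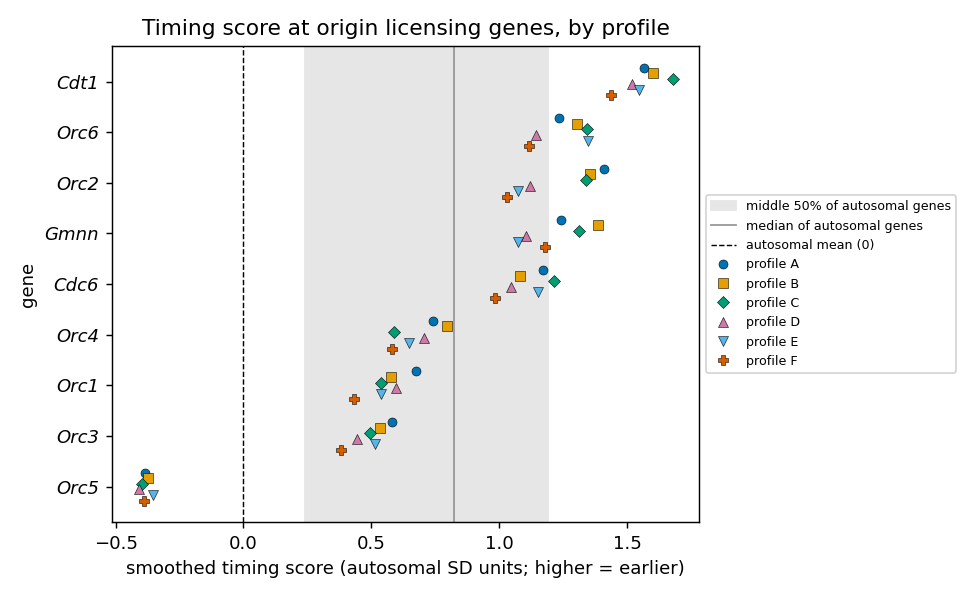
Smoothed timing score (x axis, autosomal SD units, higher is earlier) at each licensing gene (y axis, ordered by median), with 1 marker per profile A to F. The grey band holds the middle 50% of autosomal protein-coding genes, the grey line their median and the dashed line the autosomal mean. Cdt1 lies right of the band in every profile, between 1.44 and 1.68, and Orc5 left of it, between -0.41 and -0.35.

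Promoters of 4 members are shown for the contrast in place. Cdt1 was the earliest gene, Cdc6 lay near a timing maximum, Orc1 lay beside a shallow minimum above 0, and Orc5 was the latest gene. Orc1 and Orc5 lay at like distances from their nearest valleys, medians of 159 and 157 kb. Each promoter is the 250 bases before the annotated start, 5′ to 3′ on the gene's strand, from RefSeq (GRCm38.p6, the assembly of mm10). Capitals mark matches on either strand to an E2F motif, searched as TTTCGCGC, TTTGGCGC, TTTCCCGC or TTTGCCGC. Cdt1 is chr8:122567765-122568014 (plus strand), Cdc6 is chr11:98907901-98908150 (plus), Orc1 is chr4:108579204-108579453 (plus) and Orc5 is chr5:22550339-22550588 (minus).
Cdt1: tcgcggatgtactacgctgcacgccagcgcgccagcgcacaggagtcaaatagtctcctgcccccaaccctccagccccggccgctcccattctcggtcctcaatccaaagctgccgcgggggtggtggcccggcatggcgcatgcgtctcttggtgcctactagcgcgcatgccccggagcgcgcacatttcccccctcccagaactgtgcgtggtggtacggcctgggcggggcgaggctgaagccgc
Cdc6: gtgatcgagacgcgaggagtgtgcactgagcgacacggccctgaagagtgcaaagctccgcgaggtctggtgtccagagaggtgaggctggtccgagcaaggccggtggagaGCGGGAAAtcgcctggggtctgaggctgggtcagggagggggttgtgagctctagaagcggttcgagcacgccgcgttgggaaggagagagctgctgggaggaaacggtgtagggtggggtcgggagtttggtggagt
Orc1: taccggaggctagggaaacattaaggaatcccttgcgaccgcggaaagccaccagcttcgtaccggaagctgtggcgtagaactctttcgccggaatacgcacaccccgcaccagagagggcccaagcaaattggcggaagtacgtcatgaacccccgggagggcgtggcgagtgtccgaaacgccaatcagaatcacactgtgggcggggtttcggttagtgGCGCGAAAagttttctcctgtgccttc
Orc5: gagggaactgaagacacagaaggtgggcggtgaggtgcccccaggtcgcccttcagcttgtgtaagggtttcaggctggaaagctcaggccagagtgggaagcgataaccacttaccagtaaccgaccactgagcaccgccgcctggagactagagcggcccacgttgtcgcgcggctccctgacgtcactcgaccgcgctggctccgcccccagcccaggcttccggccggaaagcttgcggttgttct

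Promoter entries matched 8 of the 9 genes, all but Gmnn. Over 300 bases, 250 before the start and 50 after it, 4 of these 8 held an E2F match, against 2.95% of 17274 protein-coding promoters: Orc1 at base -27, Orc3 at -41, Cdc6 at -138 and Cdt1 at 33 after the start, beyond the stretch shown. The other motif searched, CCAAT on either strand, was in 3 of the 8, against 39.4% of all promoters. E2F factors switch on genes for DNA replication at the end of G1, and a match in letters is not a bound site. The early Cdt1 promoter had 66.7% G and C and 32 CpG, and the late Orc5 promoter 64.0% and 23 CpG, against medians of 56.3% and 14 CpG over all promoters. The Orc2 promoter, of another early gene, had 47.7% and 15 CpG. Promoter composition thus did not follow the order of timing among these genes. For Orc4 and Orc2, which have more than 1 annotated start, the first listed was used.

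Orc1 encodes the largest ORC subunit, which in human cells is degraded as S phase proceeds. The gene (chromosome 4, 108575705 to 108616030, 40.3 kb) scored 0.68, 0.58, 0.54, 0.59, 0.54 and 0.43 in profiles A to F, later than the median gene in each. Its percentile among autosomal genes was 35.3 to 39.8. The gene lay beside a shallow minimum: the nearest timing valley was a median of 159 kb away (98.0 to 179 kb) on the lower side, and the score climbed to 1.14 at 500 kb on the upper side. This low ground was still earlier than the autosomal mean, and the stretch of windows above 0 around Orc1 measured 5.75 Mb (4.66 to 5.92 Mb). Orc1 overlapped the splicing factor gene Prpf38a, and its neighbours Tut4 (0.52) and Cc2d1b (0.58) had like median scores.

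Orc2 (chromosome 1, 58462771 to 58505113, 42.3 kb) scored 1.41, 1.36, 1.34, 1.12, 1.07 and 1.03 in profiles A to F. It had the widest range of the 9 genes, 0.38, and 80.6% of autosomal genes had a smaller one. A was highest and F lowest. Scores rose toward Orc2 from both sides, from 0.82 at 500 kb below and 0.89 at 500 kb above, and in 5 of 6 profiles a timing peak lay within 100 kb of its midpoint. Nif3l1 lay 495 bp from Orc2 on the lower side and scored 1.21, and Fam126b on the upper side scored 1.23.

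Orc3 (chromosome 4, 34566781 to 34614963, 48.2 kb) lay on a slope. Its scores were 0.58, 0.54, 0.49, 0.45, 0.52 and 0.38 in A to F, at percentiles 32.1 to 35.5 of autosomal genes. The median score climbed from -0.57 at 500 kb below the gene to 0.71 at 250 kb above it, and the score spanned a median of 1.27 within 500 kb, the most of the 9 genes at that distance. Within 1000 kb Gmnn (2.35), Orc5 (1.72) and Orc4 (1.68) spanned more than Orc3 (1.42). The early stretch that held Orc3 measured only 0.995 Mb (0.847 to 1.10 Mb), and its nearer edge was a median of 215 kb from the gene. On the early side Slc35a1, 48.3 kb away, scored 0.62. Rars2 and Akirin2 overlapped Orc3 in the annotation.

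Orc4 (chromosome 2, 48902824 to 48952902, 50.1 kb) scored 0.74, 0.79, 0.59, 0.71, 0.65 and 0.58 in A to F. It was the earliest of the 3 ORC genes between Cdc6 and Orc5 in the order, above Orc1 in 6 of 6 profiles by 0.05 to 0.22. On rescaled raw levels over 100 kb the direction turned, with Orc4 at a median of 0.31, later in 6 of 6 profiles than Orc1 at 0.95 and Orc3 at 0.89. Its surroundings were poor in genes, with 2 other protein-coding midpoints within 500 kb, and 4.97% of autosomal genes had as few or fewer. Acvr2a and Mbd5 overlapped it in the annotation, and the nearest gene beyond them, Epc2 at 498 kb above, scored 0.67. The early stretch around Orc4 measured 1.65 Mb (1.51 to 1.71 Mb).

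Orc5 was the latest of the 9 genes (chromosome 5, 22486480 to 22550338, 63.9 kb). It scored -0.39, -0.37, -0.39, -0.41, -0.35 and -0.39 in A to F, at percentiles 11.6 to 12.6 of autosomal genes. These smoothed values lay within 0.0558 of each other, and 0.0609% of autosomal genes had a smaller range. Rescaled raw levels over 100 kb were wider apart, from -0.32 to 0.24, so the narrow range holds only for the smoothed score. The gene lay in a narrow late stretch of 0.827 Mb (0.736 to 0.847 Mb), with the bottom of the valley a median of 157 kb above the gene (135 to 195 kb). From 0.63 at 500 kb below, the score fell through 0 to -0.45 at 250 kb above, and the edge of the late stretch lay a median of 218 kb from the gene. Reln, which encodes the secreted neuronal protein reelin and lies 142 kb below, was on the early side at 0.42, and Lhfpl3, 196 kb above, was at -0.16. Like Orc4, Orc5 had 2 other genes within 500 kb, so gene-poor surroundings went with a score of 0.68 at one gene and of -0.39 at the other.

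Orc6 encodes the subunit that is not related in sequence to the ATPase subunits. The gene (chromosome 8, 85299632 to 85308279, 8.65 kb) scored 1.23, 1.31, 1.34, 1.14, 1.35 and 1.12 in A to F. It sat on broad early ground: the stretch above 0 measured 5.14 Mb (4.19 to 6.12 Mb), and within 500 kb the score did not go below 0.84 in any profile. With 35 other genes within 500 kb, this was the most gene-dense of the 9 surroundings. Vps35, a retromer subunit gene, lay 115 bp away and scored 1.26, and Mylk3 lay 16.6 kb away on the upper side and scored 1.29.

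**Figure D2:**
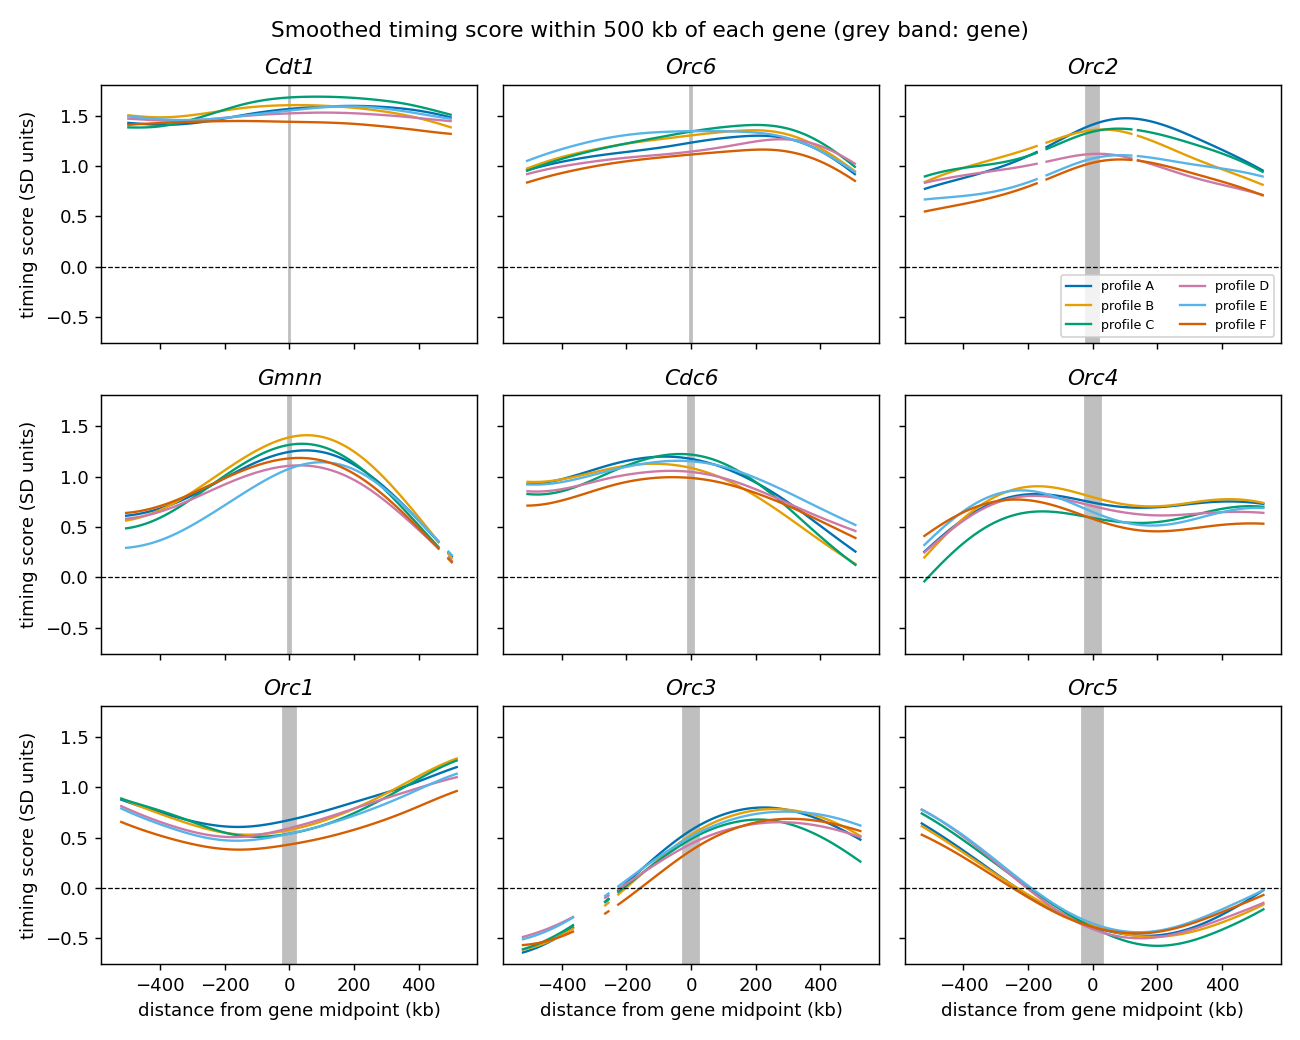
Smoothed timing score (y axis, autosomal SD units) against distance from the gene midpoint (x axis, kb) for each licensing gene, with 1 line per profile, the gene as a grey band and the autosomal mean dashed. Gmnn, Cdc6 and Orc2 lie near maxima, Orc3 and Orc5 on slopes that cross 0, and Cdt1 on a plateau where the median span within 500 kb is 0.16. Gaps are windows without a value.

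Cdt1, the loading factor that geminin binds, was the earliest of the 9 genes by score. The gene (chromosome 8, 122568015 to 122573130, 5.12 kb) scored 1.56, 1.60, 1.68, 1.52, 1.55 and 1.44 in A to F, at percentiles 93.1 to 95.5 of autosomal genes. It was earlier than Orc6, the next in order, in 6 of 6 profiles, by 0.20 to 0.38. Its surroundings were flat and early: within 500 kb the lowest score of any profile was 1.32, with a median span of 0.16 that became 0.93 within 1000 kb, and the early stretch measured 7.39 Mb (6.27 to 8.71 Mb), the longest median of the 9. Aprt, the purine salvage gene adenine phosphoribosyltransferase, lay 1.51 kb away on the upper side at 1.56, and Piezo1, a mechanosensitive channel gene, lay 16.7 kb away on the lower side at 1.54.

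Cdc6, the ATPase that joins ORC and recruits the helicase, lay on chromosome 11 (98907709 to 98923942, 16.2 kb). Scores were 1.17, 1.08, 1.22, 1.04, 1.15 and 0.98 in A to F, at percentiles 64.8 to 73.7. A timing peak lay a median of 71.1 kb away, within 100 kb in 4 of 6 profiles. In profile D the same rise was too low to count as a peak, and the nearest one lay 1787 kb away. On the upper side the score fell to 0.34 at 500 kb, while on the lower side it was still 0.89. Cdc6 had 34 other genes within 500 kb, and its neighbours Wipf2 (1.13) and Rara, the retinoic acid receptor alpha gene (1.10), lay 2.13 and 3.86 kb away.

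Gmnn (chromosome 13, 24751845 to 24761937, 10.1 kb), the geminin gene, scored 1.24, 1.39, 1.31, 1.11, 1.07 and 1.18 in A to F. The range, 0.31, was the second widest of the 9 genes, with B highest and E lowest. Gmnn stood at the top of its own narrow peak: the peak lay a median of 47.8 kb away (32.7 to 103 kb), and the score fell to 0.58 at 500 kb below and 0.18 at 500 kb above. The early stretch measured 2.32 Mb (2.27 to 2.33 Mb), shorter than those of Cdt1, Cdc6, Orc6, Orc1 and Orc2. Armh2 (1.21) and BC005537 (1.22) were its nearest neighbours.

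In the order of median scores, Cdt1 (1.56) came before Orc6 (1.27), Orc2 (1.23), Gmnn (1.21), Cdc6 (1.12), Orc4 (0.68), Orc1 (0.56), Orc3 (0.50) and Orc5 (-0.39). Of the 36 pairs of genes, 31 had the same order in all 6 profiles. The ranges of 3 neighbouring pairs did not overlap: Cdt1 and Orc6, Cdc6 and Orc4, and Orc3 and Orc5. Neighbours from Orc6 to Cdc6 did not differ beyond their spread, as Orc6 was ahead of Orc2 in 4 of 6 profiles, Orc2 ahead of Gmnn in 3 and Gmnn ahead of Cdc6 in 5, while Orc6 and Cdc6, farther apart in the order, kept theirs in 6 of 6. The other neighbours, Orc4 with Orc1 and Orc1 with Orc3, overlapped in range but kept their order in each profile. Profile F was the lowest at 7 of the 9 genes, and it also had the lowest median over all autosomal genes. The share of all genes at which F was lowest was not computed, so the count is not read as particular to these genes.

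The raw copy level, before smoothing, gave another order among the early genes, and Cdt1 was not first in it. Averaged over the windows that overlap each gene, it had medians over the profiles of 2.32 at Cdc6, 2.27 at Gmnn, 2.23 at Orc2, 2.17 at Orc6, 2.16 at Cdt1, 2.15 at Orc3, 2.12 at Orc1, 2.00 at Orc4 and 1.99 at Orc5. Single windows scattered with an SD of 0.121 to 0.127 around the level that their score predicts, and 4 of the genes had 2 windows each, so means over 100 kb, with a scatter of 0.0432 to 0.0475 over autosomal bins, were also taken. On that scale Cdt1 had levels of 2.22, 2.18, 2.17, 2.12, 2.17 and 2.17 in A to F, and Orc5 had 2.01, 1.99, 2.01, 1.91, 1.93 and 1.94. Cdt1 thus had a median of 1.11 times the copies of Orc5 (1.08 to 1.12). That is the size of the copy difference between the earliest and the latest of these genes by score.

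Orc2 departed most from its smoothed score, and Orc4 departed most among the genes below theirs. Over 100 kb Orc2 had raw levels of 2.29, 2.29, 2.26, 2.23, 2.26 and 2.25 in A to F, the highest of the 9 genes in each profile, and lay a median of 2.52 bin SDs above the level that its score predicts (1.87 to 3.01). Orc4, at 2.03, 2.02, 2.02, 2.01, 2.00 and 2.05, lay 1.26 bin SDs below it (-1.59 to -0.31). The departure had the same sign in all 6 profiles at Orc1, Orc2, Orc3, Orc5 and Orc6 (above) and at Orc4 and Cdt1 (below). Raw levels were also rescaled to mean 0 and SD 1 over autosomal 100-kb bins, whereas the scores are scaled over smoothed windows. On that scale Orc5 was at 0.19, 0.09, 0.24, -0.32, -0.15 and -0.16 in A to F, against a bin scatter of 0.259 to 0.339. The late call of Orc5 thus rests mainly on smoothed scores. Its rescaled raw levels were above 0 in A, B and C, and those in E and F were below 0 by less than the bin scatter (0.27 and 0.26). In D the level was slightly beyond that scatter (0.29). The place of Orc5 at the end of the order held for scores and for 100-kb raw levels in every profile. Over overlapping windows alone, Orc4 was lower than Orc5 in A, B and C, at 2.02, 1.99 and 2.00 for Orc4 against 2.02, 2.02 and 2.03 for Orc5.

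**Figure D3:**
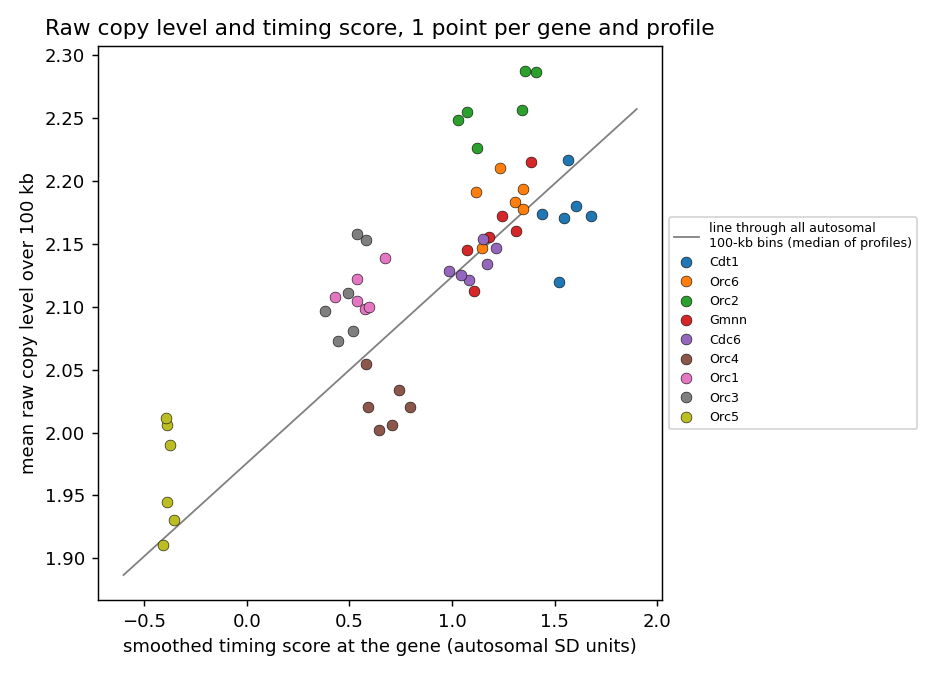
Mean raw copy level over the 100 kb around each licensing gene (y axis) against its smoothed timing score (x axis, autosomal SD units), with 1 point per gene and profile. The line is the fit through all autosomal 100-kb bins, as the median of the 6 profiles. Orc2 lies above the line and Orc4 below it in every profile.

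Genes elsewhere with the scores most like those of a member were taken over the 6 profiles, from other chromosomes, by the mean absolute difference. For Cdt1 they were Ddx6 (0.0150), Adamtsl4 (0.0171) and Mcl1 (0.0188), of which the last 2 lie side by side on chromosome 3. For Orc5 they were Alkal1 (0.0246), Sdhaf3 (0.0272) and Shcbp1 (0.0297). For Orc2 they were Fam117a (0.0335) and Nxph3 (0.0351) on chromosome 11 and Klrb1b (0.0364). With 18063 genes and 6 profiles, such closeness describes timing alone.

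Genes that act with the licensing factors, or are related to them, were also spread from early to late. The list had 27 genes, most of them for MCM helicase subunits, ORC and CDT1 binding proteins, and ligases, cyclins and kinases that limit licensing to G1. It also held the helicase chaperone gene Mcmbp, the chromatin gene Kmt5a, the transcription factor gene E2f1, and Mcidas and Gmnc, listed only as relatives of geminin. With an autosomal score in every profile were 25. Ddb1 on chromosome 19 had no value, and Cul4b on X had scores of -7.93 to -5.89 that also hold the lower copy number of X. Of the 25, 19 scored above 0 in each profile, 4 below 0 in each and 2 on both sides, or 76.0% above, close to the 76.4% of all genes. The list median was 0.87 (0.72 to 0.99), against 0.82 (0.70 to 0.87) for all autosomal genes.

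The earliest partners were Cul4a, a scaffold of the ligase that removes CDT1 in S phase (median 1.76, range 1.61 to 1.92), Dtl, the receptor of that ligase (1.70, 1.49 to 1.88), and the helicase subunit gene Mcm6 (1.38 to 1.62). The latest were Mcm3 (-0.46, -0.50 to -0.32), Gmnc, a relative of geminin (-0.43, -0.51 to -0.28), and the mitotic kinase gene Cdk1 (-0.38, -0.56 to -0.19). Of these, Mcm3 stood at 0.30 on rescaled raw levels. The other gene below 0 in each profile, named after its values were seen, was Fbxo5 (-0.19, and 0.34 on rescaled raw levels), which encodes an inhibitor of the anaphase-promoting complex. The helicase genes thus lay on both sides of 0, as the ORC genes did. Skp2, the receptor of a second ligase that acts on CDT1, was near 0 at 0.21, 0.13, -0.02, 0.10, 0.28 and 0.26 in A to F. Ccna2, the cyclin A2 gene on chromosome 3, had 0.11, 0.05, -0.06, -1.04, -1.65 and 0.02, with D and E far below the others. Its raw levels at the gene were also lowest in D (1.92) and E (1.82), against 2.04 to 2.18. The low values were not limited to Ccna2: over 100 kb the raw level was 1.84 in D and 1.71 in E, against 1.98 to 2.03. In the lowest profile no score within 500 kb was above -1.32. The stretch of windows on the same side of 0 as the gene had a median of 1.74 Mb and a maximum of 47.4 Mb. Whether D and E differed there in timing or in copy number was not tested.

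**Figure D4:**
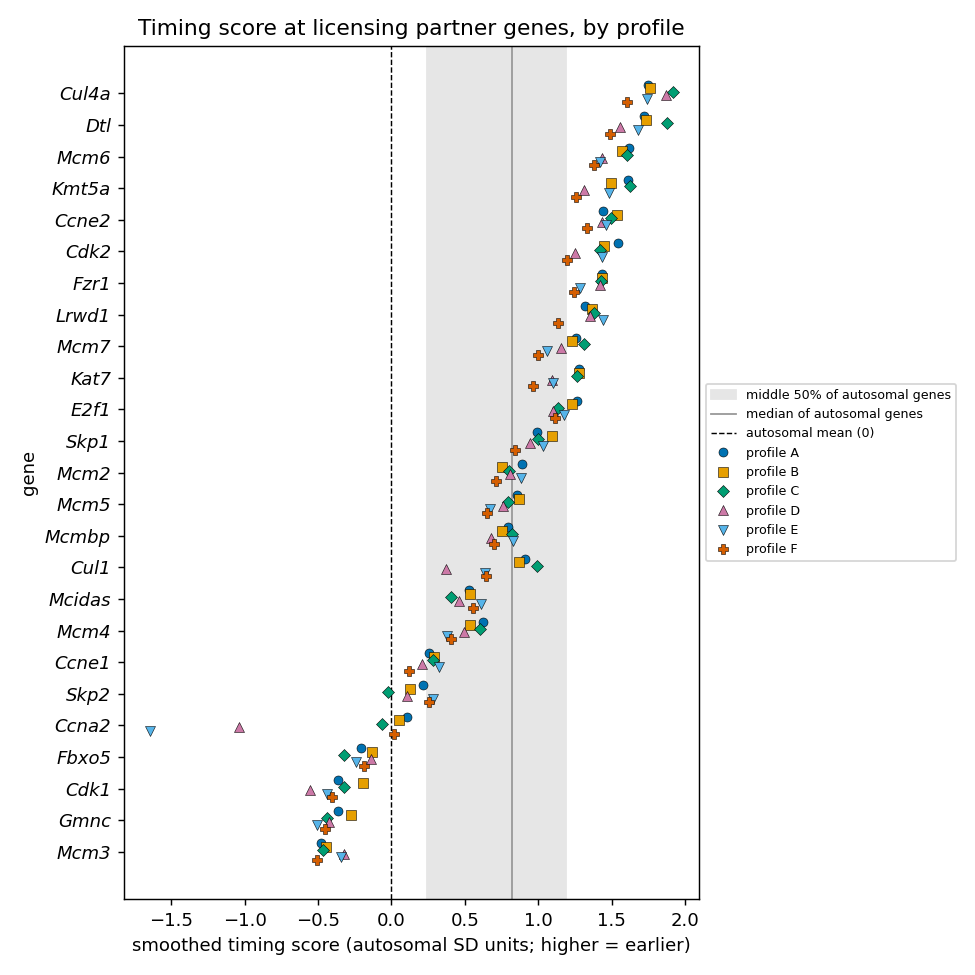
Smoothed timing score (x axis, autosomal SD units) at the 25 licensing partner genes with a score in every profile (y axis, ordered by median), with 1 marker per profile. The grey band holds the middle 50% of autosomal protein-coding genes. Ccna2 stands out by the distance of profiles D and E, at -1.04 and -1.65, from the other 4.

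The targeted genes were themselves early, with scores of 1.25 to 1.39 at Recql4 and 1.05 to 2.14 at Klhdc3, where D was highest. The high value was not limited to Klhdc3: the mean score within 500 kb reached 2.18 in the highest profile, against a median of 1.19. Over 100 kb the raw level at Klhdc3 was 2.25 in D, against 2.15 to 2.18 in the others. Whether D differed there in timing or in copy number was not tested. Raw levels at Recql4 and Klhdc3, 2.06 to 2.21 and 2.11 to 2.20 over 2 windows each, were not used to assign a genotype to a profile. Raw levels had autosomal medians of 1.96 to 1.98 in the 6 profiles. On chromosome 4, which holds Orc1 and Orc3, profile F had raw medians per 5 Mb of 2.09 to 2.34 from 45 to 75 Mb, against 1.81 to 2.04 in the other 5 profiles, and 1.94 from 35 to 40 Mb, against 1.74 to 1.80. Within 500 kb of the genes F did not stand apart in this way, as the mean raw level there was 2.06 to 2.10 over the 6 profiles at Orc1 and 2.00 to 2.03 at Orc3.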

How the data were processed

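Whole-genome sequencing depth was measured in 6 cell line samples, and the authors deposited 2 headerless tables over 237602 windows (median 10041 bp), which share their positions. One held a normalised DNA copy level, called the raw level here, and the other a smoothed timing score. Each deposited score column proved, from its values, to be centred on 0 and scaled to unit SD on the autosomes. Per the submitters' processing notes, Picard 2.23.9 was used and the genome was mm10, and the series title names TIGER. Not given in the sources used here were the aligner, the GC correction, the window filter, the smoothing and the depth reached, and no counting interval could be had. Smoothing spreads a score over neighbouring windows, and scaling removes differences in amplitude between profiles.

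The columns could not be tied to samples, so the planned limma test between genotypes was not run, and values are given per profile or as median and range. A gene took the score of the window nearest its midpoint, within 50 kb (RefSeq genes, GRCm38.p6). Surroundings were the windows within 500 kb. Peaks and valleys were extremes with a prominence of at least 0.25 on the valued windows of a profile. Raw levels were averaged over overlapping windows and over 100 kb, rescaled to mean 0 and SD 1 over autosomal 100-kb bins with at least 3 valued windows, and set against a straight-line fit on the score. Named genes were the 9 members, their nearest protein-coding neighbours, the 3 closest in score to the earliest, latest and widest-ranging member, and of the partner list the 3 earliest, the 3 latest and those of mixed sign. Members and lists were chosen with earlier results of these data known. The placing of genes and the peak search were tested on simulated data. Python 3.11.15, pandas 2.3.3 and scipy 1.17.1 were used.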

Additional observations from a re-analysis of the deposited data

How the results depend on the processing

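Of the 9 genes, 8 scored above 0 in each profile under every other placement or scale run on the full list. These were gene start or lower coordinate in place of the midpoint, the mean over overlapping windows, rescaled raw levels and another scaling. Leaving out a profile could not change this count, since the 8 were above 0 and Orc5 below 0 in all 6 profiles. Without Orc1 and Orc3, an alternative chosen after seeing the data because of the levels on chromosome 4, the list median was 1.17 in place of 1.08. There 6 of 7 scored above 0 in each profile, which follows from the same scores. With a profile left out the list median was 1.07 to 1.08, and that of the partner genes 0.87 to 0.88, with 19 to 20 of them above 0 in each profile. On rescaled raw levels the partner median was 1.02, and 3 neighbouring pairs in the order of the members, in place of 5, kept their order in every profile. Member scores were recomputed 45 times, and 35 stayed within 1 SD over profiles of the reported score. Most of these reused the same smoothed scores, so their agreement is not independent support. Gmnn, without a promoter entry, kept its midpoint in the gene-start setting. Of the other 10, 7 were on rescaled raw levels, the only setting without smoothed scores, where 2 of 9 stayed. There Orc2 led at 1.89, before Orc6 at 1.39 and Cdt1 at 1.35. Gmnn stood at 1.20, Cdc6 at 1.06, Orc1 at 0.95, Orc3 at 0.89, Orc4 at 0.31 and Orc5 at -0.03. Signs turned on those levels for Mcm3 (0.30), Ccna2 (0.21) and, named after their values were seen, Fbxo5 (0.34) and Ccne1 (-0.29). With a profile left out Ccna2 ranged from -0.061 to 0.018, above 0 without C, D or E. The number of members with a peak within 100 kb by median distance was 3 at prominences of 0.25 and 0.1. It was 2 at 0.5, where the nearest peak of Cdc6 was 1729 kb away. The share of all genes so near a peak was not computed, so the count is not read as particular to these genes. The span of scores around a member moved in 17 of 18 recomputations with surroundings of 250 or 1000 kb, being 0.10 to 0.88 at the first and 0.84 to 2.35 at the second. The cause of these changes was not tested. No paired analysis was possible because neither table names a sample or a replicate. Depth is unknown, and the scatter of raw levels around the score stands in for the limit that it sets.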
